A study of Oryza sativa with 32 samples.

Results

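The glutathione S-transferase (GST) loci of rice are those whose representative gene model is described as a glutathione S-transferase in MSUv.7, the annotation of the Nipponbare reference genome, and is not marked as a transposable element (TE). The search ignored case and gave 82 loci of 39049 non-TE loci and of 55986 loci in all. The study itself sampled roots of rice seedlings of 4 genotypes, each after 5 days of control conditions and with or without a further 4 h at 80 µM Al3+ activity. The genotypes were the near-isogenic line AZU[IR6412.1], which carries an IR64 segment of chromosome 12 in the Azucena background, its recurrent parent Azucena (tropical japonica), the near-isogenic line IR64[AZU12.1], which carries an Azucena segment in the IR64 background, and its recurrent parent IR64 (indica). With 4 biological replicates per genotype and treatment there were 32 RNA-seq libraries. The file analysed here is the annotation against which those reads were counted and gives no measurement from any of the 32 libraries. What follows therefore describes where the GST loci lie and how they are annotated, and no level of expression. The annotation is 1 complete list, so counts over it have no replicate error, and differences between GST loci and other loci are given as descriptions with no test.

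GSTs are enzymes that join the tripeptide glutathione to reactive, often toxic compounds, or that bind or reduce such compounds. In plants the tau class (GSTU) and the phi class (GSTF) are the large ones and act on herbicides, other foreign compounds and products of oxidative stress, and the smaller classes include microsomal GSTs, which are membrane proteins unrelated in sequence to the soluble ones. Families of this kind commonly grow by duplication of a gene beside itself, which leaves tandem arrays, and GST genes were among the early genes reported to respond to Al in Arabidopsis roots. How the copies are arranged also bears on RNA-seq, since reads of near-identical neighbours can be hard to assign to 1 of them.

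Most GST loci carry no class name in the annotation. Of the 82, 63 (76.8%) are described only as glutathione S-transferase. A further 10 are described by an N-terminal domain and 2 by a C-terminal domain of the enzyme, so that 12 loci are named for a domain and not for the whole protein. Only 7 loci have a more particular name. The name GSTU6, a tau class name, is used for 4 loci, LOC_Os06g12290, LOC_Os10g38340, LOC_Os10g38489 and LOC_Os10g38600. GSTF1, a phi class name, stands at LOC_Os01g27300, GST 26 at LOC_Os10g22310 and microsomal glutathione S-transferase 3 at LOC_Os03g50130. LOC_Os10g38340 is also the GST locus listed by its identifier in the main text of the study. The description alone therefore does not give the class of most members, and the loci are grouped below by position.

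The GST loci lie on all 12 chromosomes, but most of them are on 3. Chromosome 10 holds 31, chromosome 1 holds 21 and chromosome 3 holds 9, together 61 loci or 74.4%. The other 9 chromosomes have between 1 and 3 each, with a single locus on chromosome 2 (LOC_Os02g35590) and on chromosome 4 (LOC_Os04g35560). Relative to the number of non-TE loci, chromosome 10 has 13.5 GST loci per 1000, chromosome 1 has 4.14 and chromosome 3 has 2.05. On the remaining chromosomes the value runs from 0.242 on chromosome 2 to 1.33 on chromosome 9. Chromosome 10 thus carries the most GST loci although, with 2292 non-TE loci, it is among the chromosomes with the fewest.

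**Figure D1:**
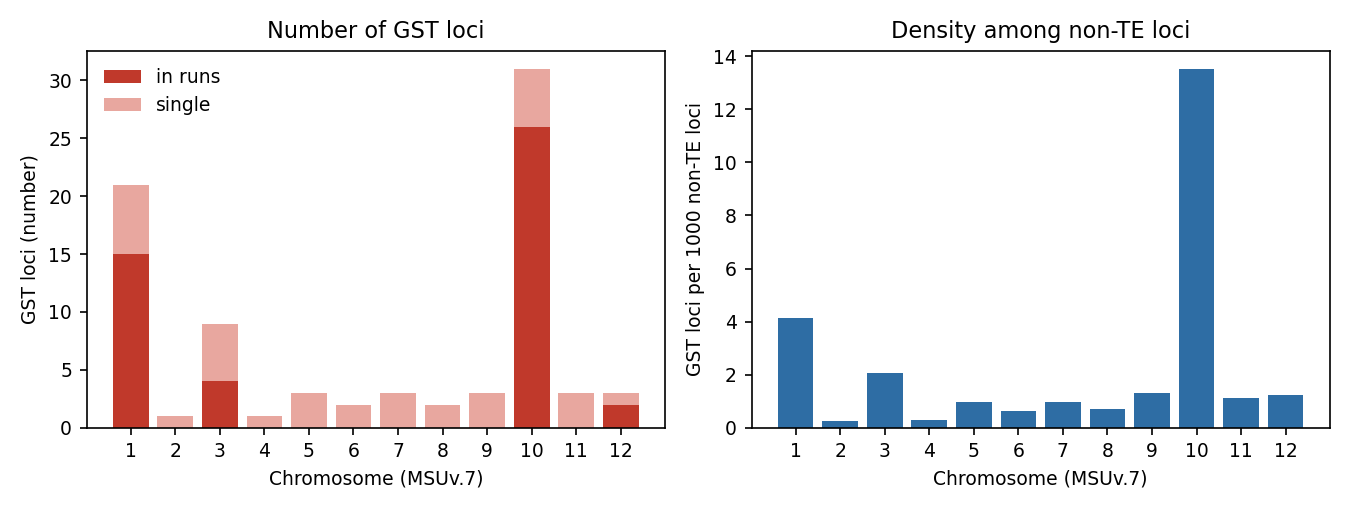
Number of GST loci on each chromosome, split into loci in runs and single loci (left), and GST loci per 1000 non-TE loci (right). Chromosome 10 stands highest in both panels, with 31 loci and 13.5 per 1000 non-TE loci, and most of its loci and those of chromosome 1 are in runs.

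To describe clustering, members were joined into a run when the next GST locus along the chromosome lay within 5 loci, all annotated loci counted. By this rule 47 of the 82 loci (57.3%) lie in 8 runs, and 35 (42.7%) are single. The runs are on chromosomes 1, 3, 10 and 12, and the other 8 chromosomes have 18 GST loci and no run. Most runs are dense: of the 39 pairs of neighbours inside runs, 27 have no other locus in between. In the run from LOC_Os01g27210 to LOC_Os01g27390, however, only 1 of 6 pairs has none. No pair lies exactly at the limit of 5, though other ways of counting steps change the runs, as given at the end. The widest steps inside runs are 4 loci, from LOC_Os01g27210 to LOC_Os01g27260 and from LOC_Os10g38740 to LOC_Os10g38780, and the narrowest steps outside are 8 loci, from LOC_Os01g27390 to LOC_Os01g27480, and 9 loci, from LOC_Os10g38360 to LOC_Os10g38470.

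To set this beside other genes, loci with the same description within 5 loci were counted. Of the GST loci, 40 of 82 (48.8%) have such a neighbour. Of the 22819 other non-TE loci with a described product, 3263 (14.3%) have one. When runs were formed in the same way for every other product with at least 20 non-TE loci, 16 of 156 products had a larger share of their loci in runs than the GST loci, and the median share was 18.2%. The comparison depends on how a family is drawn up, since the GST loci pool 7 descriptions and each product is 1 description. For the 63 loci described only as glutathione S-transferase, the share was 63.5%. For comparison 2 other enzyme families were chosen, which do not stand for all enzymes of detoxification and oxidation. The share of P450 loci was close to that of the GST loci, and the share of peroxidase precursors was larger. Loci described as cytochrome P450, enzymes that oxidise many small molecules, number 350 with 200 (57.1%) in runs, and peroxidase precursors number 140 with 94 (67.1%) in runs. The largest run of P450 loci has 14 loci and the largest of peroxidase precursors has 7, against 18 for the GST loci. Only 2 of the 156 products, the loci described as carrier and as phytosulfokine receptor precursor, have a run of at least 18. The run of 18 again pools descriptions, and loci described only as glutathione S-transferase have a largest run of 15.

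**Figure D2:**
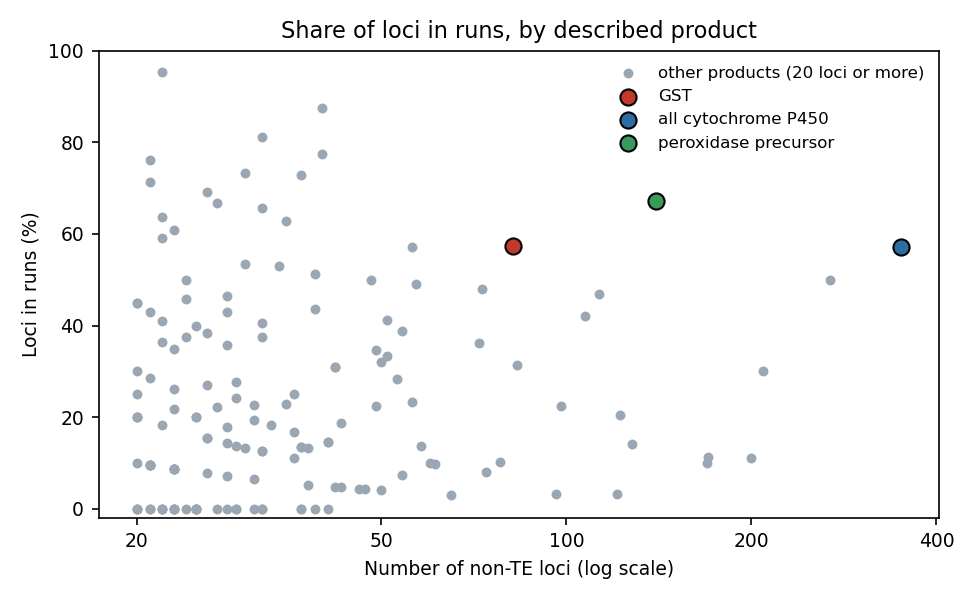
Share of loci in runs (vertical axis, percent) against the number of non-TE loci with that product (horizontal axis, log scale). Shown are GST loci, all cytochrome P450 loci, peroxidase precursor loci and 156 single descriptions of at least 20 loci other than GST. The 156 include descriptions of P450 and peroxidase precursor loci, which are thus drawn again. GST loci have 57.3% in runs, close to P450 loci (57.1%), while the median of the 156 is 18.2%.

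The largest run has 18 GST loci on chromosome 10, 22.0% of the family. It spans 95765 bp, from position 20551209 at the start of LOC_Os10g38470 to position 20646973 at the end of LOC_Os10g38780, and holds 27 loci in all, so that 66.7% of them are GST loci. This corresponds to 188 GST loci per Mb. The GST gene models cover 27.4% of the span. In order along the chromosome the members are LOC_Os10g38470, LOC_Os10g38489, LOC_Os10g38540, LOC_Os10g38580, LOC_Os10g38590, LOC_Os10g38600, LOC_Os10g38610, LOC_Os10g38630, LOC_Os10g38640, LOC_Os10g38660, LOC_Os10g38670, LOC_Os10g38690, LOC_Os10g38700, LOC_Os10g38710, LOC_Os10g38720, LOC_Os10g38730, LOC_Os10g38740 and LOC_Os10g38780. All carry the expressed mark of the annotation.

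Within this run 16 members are encoded on the plus strand, and the other 2 on the minus strand. The first 12, from LOC_Os10g38470 to LOC_Os10g38690, form a block on the plus strand of 66376 bp. LOC_Os10g38700 and LOC_Os10g38710 then face the other way, over 4146 bp, and the last 4, from LOC_Os10g38720 to LOC_Os10g38780, are again on the plus strand. The gap between neighbouring members has a median of 1825 bp. The smallest gap, 899 bp, separates LOC_Os10g38600 from LOC_Os10g38610. The widest gaps are 14035 bp between LOC_Os10g38489 and LOC_Os10g38540, 13641 bp between LOC_Os10g38540 and LOC_Os10g38580, and 10797 bp between LOC_Os10g38740 and LOC_Os10g38780. LOC_Os10g38540 therefore stands somewhat apart from its neighbours on both sides, and 7 members from LOC_Os10g38580 to LOC_Os10g38660 follow each other with no other locus in between.

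The gene models of this run are short and similar in length, with 1 exception. Their median is 1128 bp, and 17 of the 18 lie between the 772 bp of LOC_Os10g38690 and the 1643 bp of LOC_Os10g38740. LOC_Os10g38489, 1 of the 4 GSTU6 loci, measures 7127 bp. It is drawn as 1 gene model, and the file gives no exons, so the length of its coding part was not analysed here. Among the 9 other loci inside the run, 5 are marked as TEs and 4 are not. The 4 non-TE loci are LOC_Os10g38510 and LOC_Os10g38760, described as expressed proteins, LOC_Os10g38664, a hypothetical protein, and LOC_Os10g38770, a GRF zinc finger family protein.

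A pair of smaller runs lies directly before the largest one. The first, from LOC_Os10g38140 (start 20431775) to LOC_Os10g38189 (end 20450040), has 4 members in 18266 bp, and they change strand at 2 of the 3 steps. It includes LOC_Os10g38150 and LOC_Os10g38160. The second, from LOC_Os10g38314 (start 20484902) to LOC_Os10g38360 (end 20499097), has 4 members in 14196 bp with no other locus in between, LOC_Os10g38314 on the minus strand and LOC_Os10g38340, LOC_Os10g38350 and LOC_Os10g38360 on the plus strand. LOC_Os10g38340, the GSTU6 locus listed in the study's main text, lies from 20488627 to 20489894 on the plus strand, 2544 bp from LOC_Os10g38314 and 3437 bp from LOC_Os10g38350. All 3 runs fall within 215199 bp and together hold 26 GST loci, 31.7% of the family, among 56 loci.

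What separates the 3 runs differs in kind. Between the first and the second lie 12 loci, none marked as a TE. They include loci described as the chloroplast 30S ribosomal proteins S4, S14 and S2 (LOC_Os10g38214, LOC_Os10g38238 and LOC_Os10g38278), the photosystem I P700 apoproteins A1 and A2 (LOC_Os10g38229 and LOC_Os10g38234), photosystem I assembly protein ycf3 (LOC_Os10g38216), the B, C and a chains of ATP synthase (LOC_Os10g38272, LOC_Os10g38274 and LOC_Os10g38276) and uncharacterized protein ycf68 (LOC_Os10g38196). As background, proteins with these names are normally encoded in plastid DNA. The other 2 are described as NADPH-dependent oxidoreductase (LOC_Os10g38206 and LOC_Os10g38212). These 12 loci lie within the 34861 bp between LOC_Os10g38189 and LOC_Os10g38314. The 8 loci between the second and the third run are of another kind, 7 TE loci and 1 receptor-like protein kinase (LOC_Os10g38450), in a gap of 52111 bp. Over the whole stretch 12 of the 56 loci (21.4%) are marked as TEs, 26 are GST loci and 18 are other non-TE loci.

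**Figure D3:**
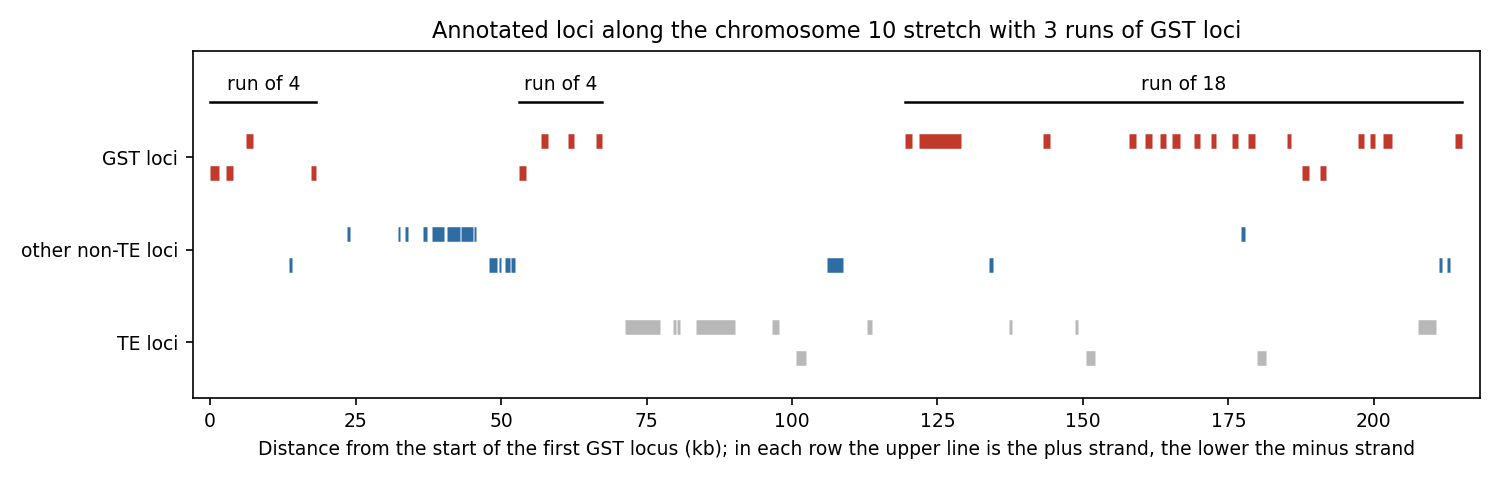
Loci of the chromosome 10 stretch by distance from the start of LOC_Os10g38140 (horizontal axis, kb), in rows for GST loci, other non-TE loci and TE loci, with the plus strand drawn above the minus strand in each row. The 3 runs of 4, 4 and 18 GST loci are separated by 12 non-TE loci and then by a gap in which 7 of 8 loci are marked as TEs.

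Chromosome 1 carries 3 runs that differ from one another in spacing. The run from LOC_Os01g27210 (start 15170345) to LOC_Os01g27390 (end 15294415) is the longest of the 8 in bp, 124071, although it has only 7 members. They are LOC_Os01g27210, LOC_Os01g27260, LOC_Os01g27300, LOC_Os01g27340, LOC_Os01g27360, LOC_Os01g27380 and LOC_Os01g27390, of which 3 have plus and 4 have minus orientation. Their gene models cover 9.13% of the span, and 9 other loci lie among them, 4 marked as TEs. The 5 non-TE loci include a pair described as 12-oxophytodienoate reductase (LOC_Os01g27230 and LOC_Os01g27240), an enzyme group that takes part in jasmonate synthesis, and a CXE carboxylesterase (LOC_Os01g27350). The GSTF1 locus LOC_Os01g27300 is in this run and, with 249 bp, is the shortest of all 82. Just past the run, LOC_Os01g27480 and LOC_Os01g27630 follow, the first 8 loci after LOC_Os01g27390 and the second 13 loci after LOC_Os01g27480, and are counted as single, so that 9 GST loci lie in 241737 bp of chromosome 1.

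The run near the end of chromosome 1 is the opposite case. It has 6 members, LOC_Os01g72120, LOC_Os01g72130, LOC_Os01g72140, LOC_Os01g72150, LOC_Os01g72160 and LOC_Os01g72170, in 14935 bp from 41839949 to 41854883. All 6 are on the plus strand and no other locus lies among them. Their gene models cover 49.1% of the span. LOC_Os01g72120 and LOC_Os01g72130 are separated by 319 bp and LOC_Os01g72150 and LOC_Os01g72160 by 334 bp, the closest pairs of the family. Expressed as GST loci per Mb, this run has 402, against 56.4 in the run at LOC_Os01g27210. The third run of chromosome 1 is the pair LOC_Os01g49710 and LOC_Os01g49720 on the minus strand, 1057 bp apart.

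The runs outside chromosomes 1 and 10 are of 1 strand each. On chromosome 3 the run from LOC_Os03g04220 (start 1938202) to LOC_Os03g04260 (end 1955969) has 4 members on the minus strand in 17768 bp, with LOC_Os03g04240 and LOC_Os03g04250 between them and 1 TE locus inside. All 9 GST loci of chromosome 3 are on the minus strand, the 5 single ones included. On chromosome 12, LOC_Os12g10720 (5756436 to 5760088) and LOC_Os12g10730 (5760466 to 5763724) are on the plus strand, 377 bp apart. These are the longest members of a run after LOC_Os10g38489, with 3653 and 3259 bp, and have 3 and 2 gene models. They cover 94.8% of the span from the first to the last position.

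**Figure D4:**
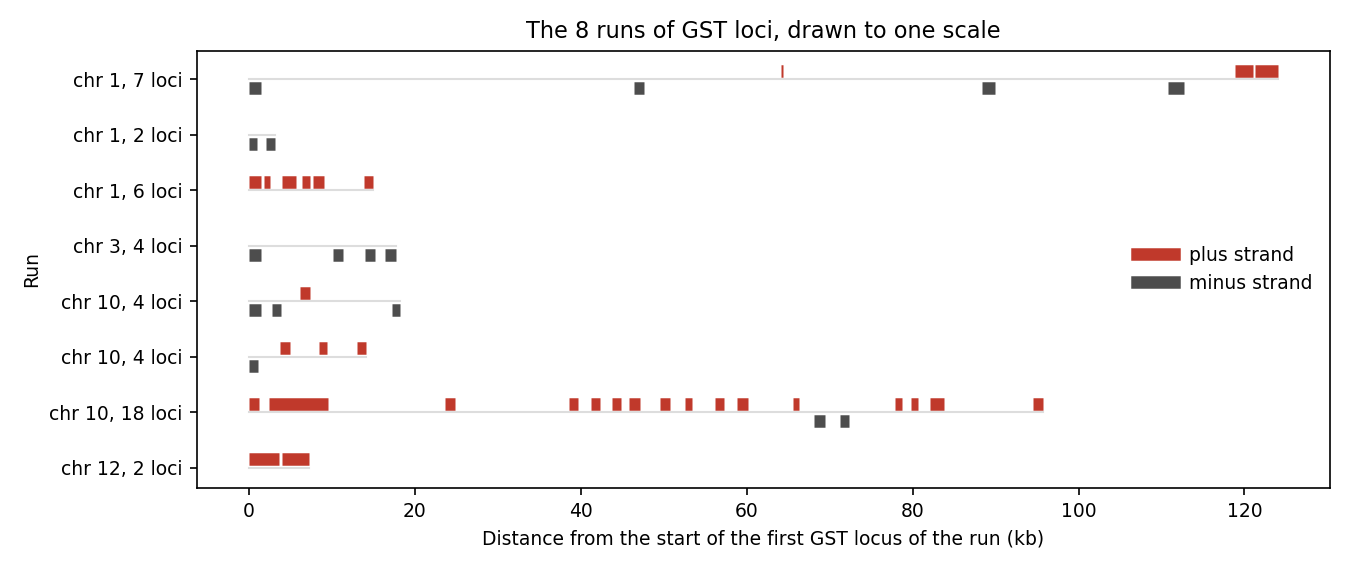
The 8 runs of GST loci, each by distance from the start of its first member (horizontal axis, kb, same scale for all), with plus-strand loci drawn above the line and minus-strand loci under it. The run of 7 on chromosome 1 spans 124071 bp, more than the run of 18 on chromosome 10 (95765 bp), and 4 of the 8 runs are of 1 strand.

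Neighbours in a run mostly lie on the same strand. This holds for 31 of 39 pairs (79.5%), for 15 of 17 pairs in the largest run and for 16 of 22 pairs in the other runs. Among all pairs of neighbouring non-TE loci other than GST pairs, 51.9% share the strand. Neighbours elsewhere in the annotation that have the same product and lie within 5 loci share it in 83.5% of 2026 pairs. The like value for loci described only as glutathione S-transferase is 26 of 31 pairs (83.9%). Of the 8 GST pairs on opposite strands, 5 are divergent, with their starts facing each other, and 3 are convergent. The 31 pairs on the same strand have a median gap of 1649 bp, the divergent pairs 5576 bp and the convergent pairs 9909 bp, with ranges that overlap widely, from 319 to 44952 bp for the same strand, 2269 to 16485 bp for divergent pairs and 1780 to 23976 bp for convergent pairs. Where GST neighbours have no locus in between, the median gap is 1459 bp over 27 pairs. The corresponding median for other adjacent non-TE loci is 2402 bp over 31782 pairs. Over the whole family 49 of 82 loci (59.8%) are on the plus strand, against 50.6% of other non-TE loci, and since members of a run share strands these loci do not count as independent.

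GST loci are short. The representative gene model, from its first to its last position with introns included, has a median length of 1255 bp (quartiles 1062 and 1822 bp), against 2173 bp (978 and 3912 bp) for the 38967 other non-TE loci. Against other loci with a described product the difference is wider, since their median is 3013 bp. Gene models under 1500 bp make up 67.1% of GST loci and 37.1% of other non-TE loci, and those over 3000 bp make up 12.2% of GST loci and 36.9% of other non-TE loci. P450 loci have a median of 2191 bp and peroxidase precursors of 1758 bp. Within the family the loci in runs have a median of 1213 bp and the single loci of 1484 bp, and their ranges overlap, from 249 to 7127 bp in runs and from 645 to 18503 bp among single loci.

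The longest member is LOC_Os09g37240, 18503 bp, followed by LOC_Os10g38489 with 7127 bp and LOC_Os08g43680 with 5586 bp. LOC_Os09g37240 and LOC_Os08g43680 are the 2 loci described by a C-terminal domain, and both are single. The 12 loci named for a domain fall on both sides of the median of the other 70, which is 1251 bp. Of the 12, 7 measure from 2698 to 18503 bp and 5 from 645 to 1181 bp, among them the single locus LOC_Os07g05800 with 1108 bp. Only 3 of the 12 lie in runs (LOC_Os10g38150, LOC_Os10g38314 and LOC_Os10g38590), against 44 of the 70. These 3 measure from 1073 to 1181 bp, close to the median of 1213 bp for all loci in runs. At the short end, LOC_Os01g27300 (249 bp) is followed by LOC_Os11g03210 (645 bp) and LOC_Os10g22070 (747 bp).

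**Figure D5:**
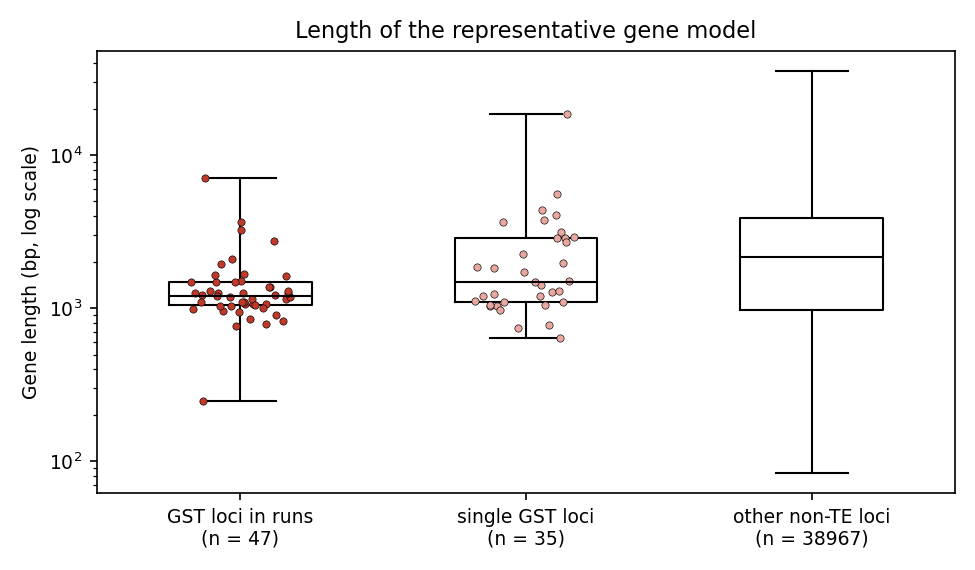
Length of the representative gene model (vertical axis, bp, log scale) for 47 GST loci in runs, 35 single GST loci and 38967 other non-TE loci. Boxes show quartiles and medians (1213, 1484 and 2173 bp), whiskers the lowest and highest value, and points single GST loci of each set.

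Nearly all GST loci are marked as expressed, a mark that belongs to the annotation and does not come from the roots sampled here. It is present at 81 of 82 loci (98.8%), against 93.5% of all other non-TE loci and 99.1% of the other loci with a described product. The share of GST loci is thus above that of all other non-TE loci and close to that of described ones. The exception is LOC_Os11g03210 on chromosome 11, from 1166519 to 1167163 on the plus strand, which is described by an N-terminal domain. All 47 loci in runs carry the mark.

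LOC_Os11g03210 has a counterpart by position near the start of chromosome 12, LOC_Os12g02960, from 1097476 to 1098454, also on the plus strand. As background, the ends of the short arms of rice chromosomes 11 and 12 are copies of each other. Among the 10 loci on each side of LOC_Os11g03210, 12 have a described product, and for 9 of them the same product occurs around LOC_Os12g02960. Of the 9 described loci around LOC_Os12g02960, 8 have a product that occurs around LOC_Os11g03210, among them a GRAS family transcription factor, a no apical meristem protein and a family 8 glycosyl transferase. The members differ in their annotation, since LOC_Os11g03210 has 645 bp and no expressed mark and LOC_Os12g02960 has 979 bp, the mark and a description as a whole glutathione S-transferase. No sequence was compared, so whether they are copies was not tested.

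The 82 GST loci have 99 gene models. More than 1 model is given for 11 of them (13.4%), a share close to the 16.0% of other non-TE loci. LOC_Os10g22310, the GST 26 locus, has the most, 4, which extend the locus to 5093 bp although its representative model has 1484 bp. Those with 3 models are LOC_Os02g35590, LOC_Os06g12630, LOC_Os08g44400 and LOC_Os12g10720. In runs 4 of 47 loci have more than 1 model, and among single loci 7 of 35 do.

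Only 1 GST locus overlaps another locus. LOC_Os09g29200, from 17747172 to 17748913 on the plus strand of chromosome 9, shares 804 bp with LOC_Os09g29210, a purine permease on the minus strand. Such an overlap with the opposite strand is found at 1.22% of GST loci and at 3.63% of other non-TE loci. Among the 10 loci nearest to each GST locus, 5 on each side, 20.5% are marked as TEs, against 22.7% around other non-TE loci. The share is 21.3% around loci in runs and 19.4% around single loci. These shares are not like for like, since the nearest 10 can include other GST loci, which by the rule are never TEs. Of the 20 other loci inside runs, 10 are marked as TEs. The number of TE loci varies, with 15 GST loci that have none among the nearest 10 and up to 7 at LOC_Os07g28480.

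On chromosome 12, which carries *ART1* (LOC_Os12g07280, from 3580032 to 3582974), the transcription factor gene at the centre of the study, there are 3 GST loci. LOC_Os12g02960 lies 2.48 Mb before *ART1*, and LOC_Os12g10720 and LOC_Os12g10730 lie 2.17 and 2.18 Mb after it. By the borders that the study gives for the introgressed segments, LOC_Os12g10720 and LOC_Os12g10730 lie inside the IR64 segment of AZU[IR6412.1] and outside the Azucena segment of IR64[AZU12.1], and LOC_Os12g02960 lies outside both.

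Products that make, recycle or use glutathione, or share the GST fold, were looked for by a list of names that is not complete. Each of those looked for describes fewer loci than the GST descriptions together. Of the 10 products looked for, 7 are present, with 66 non-TE loci, all with the expressed mark, of which 11 lie in runs of the same product. Lactoylglutathione lyase is among the 3 names that are absent. The synthesis of glutathione is represented by 2 loci for glutamate-cysteine ligase, the first enzyme of the pathway (LOC_Os05g03820 and LOC_Os07g27790), and 3 for glutathione synthetase, the second (LOC_Os11g42350, LOC_Os12g16200 and LOC_Os12g34380). Glutathione reductase, which restores the reduced form, has 3 loci, and glutathione peroxidase, which uses glutathione or thioredoxin to reduce peroxides, has 5. None of these 13 loci is in a run. Gamma-glutamyltranspeptidase, which breaks glutathione conjugates down, has 3 loci, 2 of them adjacent on chromosome 1 (LOC_Os01g05810 and LOC_Os01g05820). Glutaredoxins, small proteins that reduce disulfides with the help of glutathione, number 47, with 6 in 2 runs, the larger of 4 loci on chromosome 11 (LOC_Os11g43520 to LOC_Os11g43580).

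Some proteins with the GST fold have other names and fall outside the 82. These names were part of the 10 products above. The annotation has 3 loci described as IN2-1 protein, the name of a maize protein related to lambda class GSTs and induced by herbicide safeners. They are LOC_Os03g17460, LOC_Os03g17470 and LOC_Os03g17480, adjacent and on the minus strand of chromosome 3 from 9708206 to 9719907, and lie 1211 loci or more from the nearest GST locus. The names dehydroascorbate reductase and maleylacetoacetate isomerase, also used for proteins of this fold, are the other absent names and occur at 0 non-TE loci. Only the names are absent, and whether such proteins are among the 82 under a GST description was not analysed here.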

How the data were processed

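Per the paper's methods and the labels, the authors trimmed reads with Trimmomatic, removed ribosomal RNA reads with Bowtie and aligned the rest to MSUv.7 with HISAT. The deposited file is the MSUv.7 list of gene models, with chromosome, start and end in bp, strand, marks (TE, expressed, representative) and a description. How the models and marks were made is not given in the sources used here. No expression value was analysed, so the libraries entered no comparison and their depth does not bear on the counts of loci.

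Each locus was represented by its representative gene model, and loci were ordered by its start. Length is end minus start plus 1. Descriptions were compared after removal of the words putative and expressed, and expressed, hypothetical and transposon proteins were not counted as described products. The finding of runs was tested on simulated data with planted runs, whose steps kept to the same limit of 5 loci. That checks the code only and does not bear on the choice of the limit. A 95% exact binomial interval (for a median, its order-statistic equivalent) served only to say whether an alternative moved a value. Members, lists and alternatives were chosen with earlier results of these data known. The text names all members of the 3 largest runs, the first and last of the others, the 3 longest and shortest, those with 3 or more gene models, with an overlap, without an expressed mark, on chromosome 12 or in the study's main text, and up to 3 per description. Further loci, such as those between runs and the counterpart on chromosome 12, were chosen after their values were seen. None of the 82 identifiers was found among 39387 genes of the RefSeq table, which is of another assembly, and no sequence was used. The work was done in Python 3.11.15 with pandas 2.3.3, numpy 2.4.6, matplotlib 3.10.9 and, for intervals, scipy 1.17.1.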

Additional observations from a re-analysis of the deposited data

How the results depend on the processing

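Of 42 alternative values for 8 results, 36 stayed within the interval of the main value or within 1.5 times the main count. These limits are wide, 45.9 to 68.2% for the share in runs and 63.5 to 90.7% for the shared strand. The intervals treat loci or pairs as independent, which members of a run are not. When only an adjacent locus was taken as the next member, the share of GST loci in runs was 45.1%, and the largest run had 7 loci in 18702 bp. With the next member within 10 loci, or with TE loci not counted, the second and the third run of chromosome 10 joined into 22 loci with a span of 162072 bp. Without the loci named for a domain, 100% carried the expressed mark, since the only locus without it is 1 of them. The 5 alternatives that add the IN2-1 proteins to the runs were chosen after seeing the data and gave 58.8% of loci in runs. The number of GST loci ran from 70 without those named for a domain to 85 with the IN2-1 proteins. The description is the only basis of membership, so a GST described by another name is missed, and the class of most members was not analysed here. No paired analysis was possible because no expression value of any library was analysed. For the same reason no expression test with and without Al was run.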
